A study of Mus musculus with 8 samples.

Results

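The cytosolic ribosomal protein genes were taken as the genes whose symbol has the form Rpl or Rps with a number, Rplp0 to Rplp2, or Rpsa, with Rpl3 left out and at least 10 counts summed over the 8 libraries. The pattern matched 79 symbols, and 78 genes of the 35494 symbols in the deposited table were kept. Of these, 76 passed the filter on low counts and were tested, 45 of the large and 31 of the small subunit. Rps3a2 and Rps3a3, which resemble Rps3a1 and had 30 and 35 counts over all libraries, did not pass, and no level is given for them.

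The libraries are bulk RNA-seq of quadriceps muscle from male wild-type C57BL/6 mice that were 8 weeks old at the start, 1 library per mouse. A control group of 4 mice was injected under the skin with PBS. The scMC38 group, also 4 mice, was injected in the same way with 1000000 cells of MC38, a colorectal cancer line from mouse, and muscle was taken at day 28. All mice carry an unmodified genotype, and the series is titled as a study of mild cachexia, the loss of body mass that accompanies a tumour. Each library held 50465092 to 62105453 estimated counts, and the share of mitochondrially encoded mRNA was highest in control 1 and control 2, at 24.3% and 29.7%, against 14.4% to 18.9% in the other 6. The muscle fibre markers summed to 129874 to 175839 CPM (counts scaled to a library of 1000000) in controls and to 119744 to 171001 CPM in scMC38, with none at 0. The sum weights the most abundant genes. As a mean over the 15 genes of the log2 CPM relative to the control mean, controls 1 to 4 were at 0.05, 0.48, 0.40 and -0.94. The scMC38 libraries were at 0.08, -0.48, -0.43 and 0.26 by the same measure.

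Ribosomal proteins form the large and small subunits of the cytosolic ribosome together with ribosomal RNA. They are needed in nearly equal numbers, and most are encoded by a single expressed gene with many processed pseudogenes elsewhere in the genome. Their mRNAs typically begin with a C followed by a run of pyrimidines, the terminal oligopyrimidine (TOP) motif, through which mTORC1 and the RNA-binding protein LARP1 control their translation and stability. In skeletal muscle, ribosome content sets the capacity for protein synthesis and is known to change with growth, disuse and wasting.

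The start of the mRNA is shown first because the TOP motif is what these genes share apart from their product. RefSeq promoter windows (build GRCm38.p6) were present for 57 of the 76 tested genes. The following stretches run 5′ to 3′ on the strand of the gene, from 30 bases before to 20 bases from the annotated start, and capitals mark an unbroken pyrimidine run that begins with C exactly at that start. At the annotated start, whose exactness was not tested, the first 6 genes have such a run of at least 5 bases and the last 4 do not. They were picked among the genes described below: Rps6, Rps18, Rps10, Rps27, Rpl14 and Rplp2 against Rpl10 and Rps16, which had the highest fold changes, and Rps2 and Rplp0, which had negative ones.
Rps6 (chr4:86857348-86857397, minus strand): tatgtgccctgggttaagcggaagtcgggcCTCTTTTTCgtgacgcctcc
Rps18 (chr17:33955646-33955695, minus strand): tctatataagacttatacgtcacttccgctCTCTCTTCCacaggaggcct
Rps10 (chr17:27635225-27635274, minus strand): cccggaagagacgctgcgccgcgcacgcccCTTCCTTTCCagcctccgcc
Rps27 (chr3:90213629-90213678, minus strand): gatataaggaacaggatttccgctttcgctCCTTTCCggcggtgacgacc
Rpl14 (chr9:120571487-120571536, plus strand): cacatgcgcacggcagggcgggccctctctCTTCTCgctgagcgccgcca
Rplp2 (chr7:141447621-141447670, plus strand): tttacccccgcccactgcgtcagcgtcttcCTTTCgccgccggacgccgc
Rpl10 (chrX:74270786-74270835, plus strand): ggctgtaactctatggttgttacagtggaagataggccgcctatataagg
Rps16 (chr7:28350659-28350708, plus strand): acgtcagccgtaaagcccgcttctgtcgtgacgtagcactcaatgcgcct
Rps2 (chr17:24720033-24720082, plus strand): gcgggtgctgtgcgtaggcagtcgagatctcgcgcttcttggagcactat
Rplp0 (chr5:115559437-115559486, plus strand): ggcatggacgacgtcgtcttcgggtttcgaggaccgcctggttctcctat

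A C followed by at least 4 further pyrimidines at the annotated start was found in 13 of the 57 genes (22.8%), against 3.01% of the 27025 genes in the RefSeq table. A run of at least 8 pyrimidines anywhere within 20 bases of the start was found in 28 of 57 (49.1%), against 18.4% of all genes. The first count needs the annotated start to be exact to the base, and the second does not. In the full window of 250 bases before to 50 bases after the start, read on both strands, CCGGAA, the core bound by ETS factors, was present in 56.1% of the ribosomal protein genes and 16.7% of all genes. TCTCGCGA, a palindromic promoter element, was present in 19.3% against 1.13%. TATAAA was present in 10.5% against 15.7%. The median log2 fold change between scMC38 and control was 0.18 for the 13 genes with a TOP-like start and 0.16 for the 44 without. These matches are descriptions of letters in a window and do not show that a factor binds there.

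Ribosomal protein mRNAs lay slightly higher in the quadriceps of tumour-bearing mice than in controls, and no single gene passed the test. The log2 fold change was positive for 74 of 76 genes, where 50.2% of the 14112 genes tested were positive, with a median of 0.15 (1.11-fold) against 0.00087 over all genes. It ranged from -0.16 for Rps2 to 0.31 for Rps16, and 18 genes were above 0.2 while 16 were within 0.1 of 0. By edgeR's quasi-likelihood test, 0 of 76 had an adjusted p (Benjamini-Hochberg over all genes) under 0.05, where 1.2% of all genes did (0.737% higher and 0.468% lower). The smallest adjusted p was 0.153, for Rpl10. At an unadjusted p under 0.05 there were 10 genes, all higher in scMC38, against a background of 11.2% of all genes. This count was 1 without control 4, scMC38 1 or scMC38 3, 2 without control 1 and 3 without control 3. It was 13 without scMC38 2 or scMC38 4 and 17 without control 2. DESeq2, which called 10.1% of all genes (5.87% higher), likewise called 0 of 76. Its unadjusted p was under 0.05 for 24 of them, all higher, against 12.7% of all genes, and 0.0587 was its lowest adjusted p. The standard error of a gene's log2 fold change had a median of 0.10, and the 95% interval ran from a median lower bound of -0.06 to a median upper bound of 0.37.

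**Figure D1:**
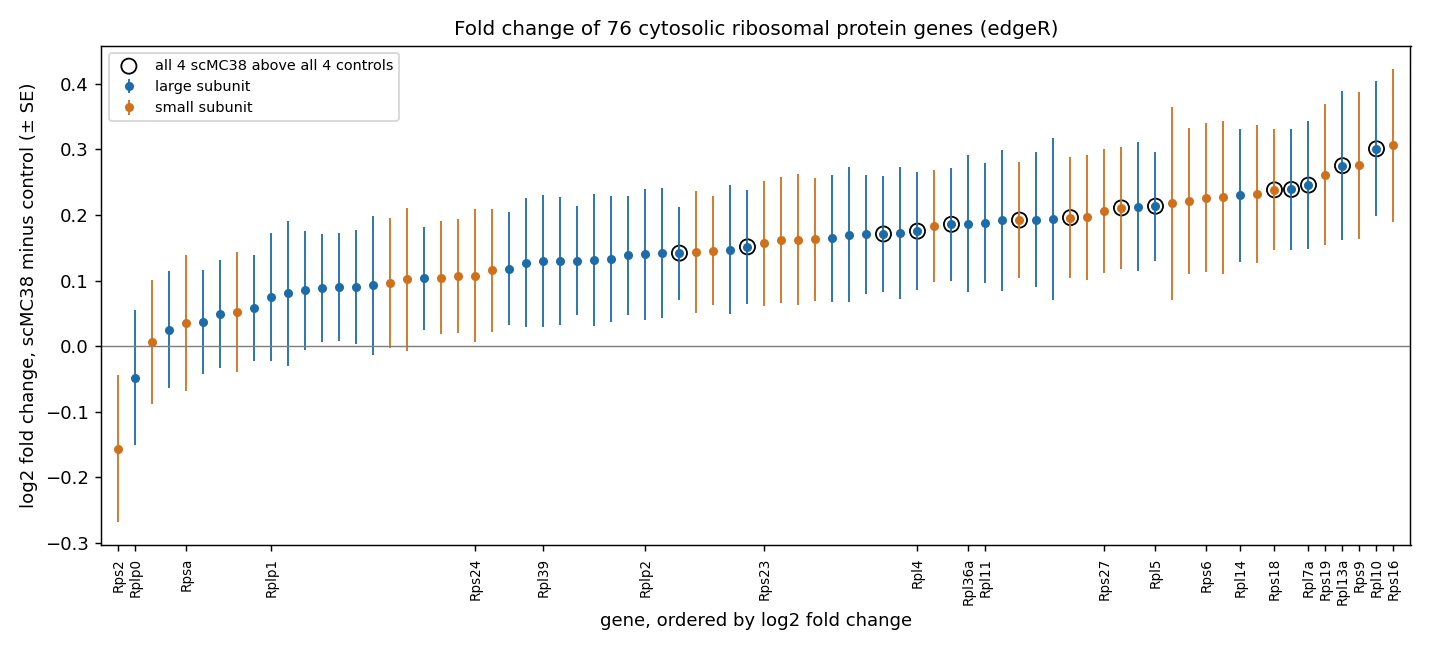
Log2 fold change (vertical axis) of each of the 76 tested ribosomal protein genes (horizontal axis, in order of fold change, with some genes named), with bars of 1 standard error from edgeR. Points are coloured by subunit and a ring marks the 14 genes for which all 4 scMC38 libraries exceeded all 4 controls. Nearly all points lie between 0 and 0.3, and only Rps2 and Rplp0 lie below 0.

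In 14 genes every scMC38 library lay above every control, against 6.82% of all genes. Among them were Rpl10, Rpl32, Rpl5, Rpl7a, Rpl13a, Rpl6, Rpl15, Rpl4 and Rpl10a of the large subunit and Rps18, Rps20 and Rps3 of the small. No ribosomal protein gene had every scMC38 library below every control, against 6.45% of all genes. Large and small subunit genes had similar medians, 0.14 and 0.16, with 44 of 45 and 30 of 31 positive. The ratio of large to small subunit counts was 1.41 ± 0.01 in controls and 1.42 ± 0.03 in scMC38 (SD, n = 4 each), so the difference was smaller than the spread between mice.

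The position of the groups rested on a few mice. As the mean over the 76 genes of the log2 CPM relative to the control mean, the level was 0.01, 0.09, 0.02 and -0.12 in controls 1 to 4, and 0.19, 0.05, 0.30 and 0.06 in scMC38 1 to 4. The groups overlapped, since control 2 lay above scMC38 2 and scMC38 4. The library of scMC38 3 was the highest of all 8 in 71 of 76 genes, where this held for 22.7% of all genes. The library of control 4 was the lowest in 69 of 76 genes, against 12.9% of all genes. In 54 genes scMC38 1 and scMC38 3 were both above the other 6 libraries, against 11.4% of all genes, and scMC38 3 exceeded scMC38 1 in 74. Control 2 lay above scMC38 2 in 56 genes and above scMC38 4 in 52.

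**Figure D2:**
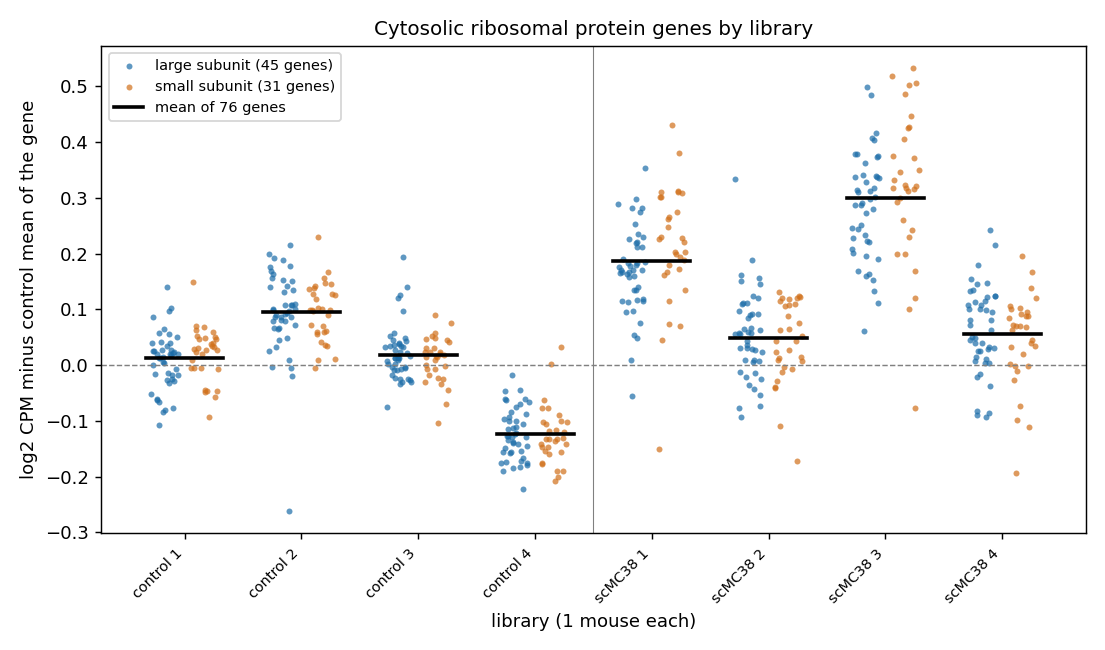
Each point is 1 ribosomal protein gene in 1 library, plotted as its log2 CPM minus its mean over the 4 controls (vertical axis), with libraries along the horizontal axis and colour for the subunit. Black bars are the mean of the 76 genes; the clouds of scMC38 1 and scMC38 3 sit highest, at means of 0.19 and 0.30, and control 4 lowest, at -0.12.

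Without scMC38 1 and scMC38 3, the median log2 fold change was 0.07, 65 of 77 genes tested were positive and edgeR gave 0 an unadjusted p under 0.05. Without scMC38 3 alone the median was 0.10 with 69 positive. Leaving out any single library gave medians from 0.10 to 0.19. The SD of log2 CPM between mice had a median of 0.10 in controls and 0.12 in scMC38. Over all genes tested, which were not matched for level, it was 0.19 and 0.21. Rps26, at the mRNA exit channel, had the smallest spread in controls (0.01). Rps12 had the largest in scMC38 (0.30).

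The share of all counts taken by the ribosomal protein genes was 1.38%, 1.39%, 1.43% and 1.31% in controls and 1.70%, 1.47%, 1.96% and 1.41% in scMC38. Only the libraries of scMC38 1, 2 and 3 exceeded the highest control. The means were 1.38% ± 0.05 and 1.63% ± 0.25 (SD, n = 4). With mitochondrially encoded counts taken out of the total, the shares were 1.77% ± 0.17 and 1.96% ± 0.31, and the groups overlapped. Without scMC38 1 and scMC38 3, the difference in the share of all counts was 0.06 percentage points in place of 0.25.

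Markers of some other cell types moved with the same libraries. A list of 16 neutrophil and marrow genes summed to 4.97 to 12.2 CPM in controls. In scMC38 1 to 4 it summed to 530, 18.6, 4837 and 40.9 CPM. All 10 tested genes were positive, and Ms4a3 was at 0 in every control. A gene near 0 in controls passes the filter on low counts only if it is high in scMC38. The signs of such genes, here and in the cell cycle, erythroid and bone lists, were thus partly fixed by the filter. The 15 macrophage genes summed to 146 to 208 CPM in controls and to 515, 324, 688 and 162 CPM in scMC38, and all 15 were positive. The 16 cell cycle genes summed to 11.6 to 15.5 CPM in controls and to 69.3, 15.9, 203 and 16.1 CPM in scMC38, with all 8 tested genes positive. The scMC38 1 and 3 libraries were thus highest for all of these lists, as they were for the ribosomal proteins. Other lists differed. Endothelial genes summed to 404 to 642 CPM in controls and 338, 400, 570 and 471 CPM in scMC38. Adipocyte genes summed to 287 to 1112 CPM in controls and 435, 726, 426 and 389 CPM in scMC38. B and plasma cell genes summed to 80.9 to 182 CPM in controls and 50.5, 107, 81.1 and 51.1 CPM in scMC38. Their mean log2 level was still highest in scMC38 1 and 3, at 1.05 and 2.62. T and NK cell genes were highest in these libraries too.

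The 12 bone genes summed to 43.9 to 51.2 CPM in controls and to 110, 24.6, 806 and 24.7 CPM in scMC38, with Bglap2 and Mepe at 0 in all controls and 4 of 6 tested genes positive. The 12 erythroid genes summed to 501 to 1087 CPM in controls and to 2639, 1668, 2899.8 and 1644 CPM in scMC38. Of the 12, 7 were tested, and edgeR called all 7 higher (0.737% of all genes were). With 1 library left out, 0 to 3 of the erythroid genes were called, and 0 were without controls 1 and 2, though all tested stayed positive. The 10 fibroblast genes summed to 2015 to 3072 CPM in controls and to 2772, 1651, 5325 and 1492 CPM in scMC38, so that scMC38 3 was again the highest. Of these genes, 3 of 10 were positive and 1 was called by edgeR, lower in scMC38 (0.468% of all genes were). The part of these cells in the ribosomal protein values was not tested. In bulk tissue, more cells of a type and more mRNA per cell cannot be told apart. Control 4 summed to 7.23 CPM for the marrow genes. It was the highest control for the macrophage (208 CPM), cell cycle (15.5 CPM) and adipocyte (1112 CPM) lists. It was the lowest control for the erythroid (501 CPM) and endothelial (404 CPM) lists. Whether these values bear on its ribosomal protein level was not tested.

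The ribosomal proteins are described next by their place in the ribosome, with CPM values that are not scaled for gene length and so are not compared between genes. Rpl10, which joins the large subunit late in the cytoplasm and completes the peptidyl transferase site, was at 66.8, 52.4, 71.9 and 62.1 CPM in controls and at 76.5, 79.3, 83.2 and 73.0 CPM in scMC38. The groups did not overlap, and control 2 was the lowest. Its log2 fold change was 0.30 (SE 0.10, 95% interval 0.07 to 0.54), with an edgeR adjusted p of 0.153, and it was 0.28 without scMC38 1 and 3. Rpl24, which also joins late, had a log2 fold change of 0.06 (SE 0.08).

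Rpl5 and Rpl11 carry 5S ribosomal RNA into the large subunit and, when unassembled, bind MDM2. Rpl5 was at 104, 115, 122 and 109 CPM in controls and at 132, 126, 142 and 122 CPM in scMC38, with the lowest scMC38 library just above the highest control. Its log2 fold change was 0.21 (SE 0.08; edgeR adjusted p = 0.194). Rpl11 was at 162, 188, 175 and 160 CPM in controls and at 193, 185, 216 and 186 CPM in scMC38, and here control 2 overlapped the scMC38 group. Its log2 fold change was 0.19 (SE 0.09; edgeR adjusted p = 0.279).

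Of the proteins that line the nascent chain tunnel or surround its exit (Rpl4, Rpl17, Rpl19, Rpl23a, Rpl26, Rpl31, Rpl35 and Rpl39), 8 of 8 were positive, with a median of 0.14 and a range of 0.02 to 0.21. Rpl4, which reaches into the tunnel, was at 475, 488, 545 and 475 CPM in controls and at 555, 552, 572 and 560 CPM in scMC38. All 4 scMC38 values fell within a narrow band above the controls, and the log2 fold change was 0.18 (SE 0.09; edgeR adjusted p = 0.299) and 0.19 without scMC38 1 and 3. Rpl39, a short tunnel protein, was at 63.9, 64.6, 62.6 and 56.1 CPM in controls and at 70.1, 64.2, 77.9 and 58.3 CPM in scMC38. Its groups overlapped, and its log2 fold change of 0.13 (SE 0.10) was 0.01 without scMC38 1 and 3.

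Among the other large subunit genes, Rpl7a was at 271, 305, 309 and 251 CPM in controls and at 331, 323, 359 and 335 CPM in scMC38. The groups were apart, the log2 fold change was 0.25 (SE 0.10; edgeR adjusted p = 0.201), and it was 0.23 without scMC38 1 and 3. Rpl13a, known for its role in interferon-driven translational silencing, was at 221, 232, 225 and 199 CPM in controls and at 279, 236, 309 and 236 CPM in scMC38. Here scMC38 2 and 4 lay close to the highest control, and the log2 fold change was 0.28 (SE 0.11; edgeR adjusted p = 0.214), or 0.13 without scMC38 1 and 3. Rpl32 had the same shape, at 143 to 160 CPM in controls and 184, 165, 202 and 164 CPM in scMC38, with a log2 fold change of 0.24 (SE 0.09) and of 0.14 without those libraries. Rpl14 had a log2 fold change of 0.23 (SE 0.10; edgeR adjusted p = 0.237) with overlapping groups. Rpl36a, among the lowest in CPM of its subunit, was at 0.19 (SE 0.10).

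The stalk of the large subunit, where translation factors dock, is built from Rplp0, Rplp1, Rplp2 and Rpl12. Rplp0, the base of the stalk, had the most counts of any large subunit gene, at 617, 677, 606 and 542 CPM in controls and 585, 570, 635 and 571 CPM in scMC38. Control 2 was the highest and control 4 the lowest, and all scMC38 values fell between them. Its log2 fold change was -0.05 (SE 0.10, 95% interval -0.28 to 0.19), and the sign turned to 0.07 with scaling by total counts and to 0.00 without control 2. Rplp1 was at 449, 472, 444 and 406 CPM against 485, 444, 504 and 431 CPM, with a log2 fold change of 0.07 (SE 0.10). Rplp2 was at 192, 234, 202 and 189 CPM against 225, 212, 249 and 216 CPM, with a log2 fold change of 0.14 (SE 0.10). The groups overlapped for both of these partner proteins.

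**Figure D3:**
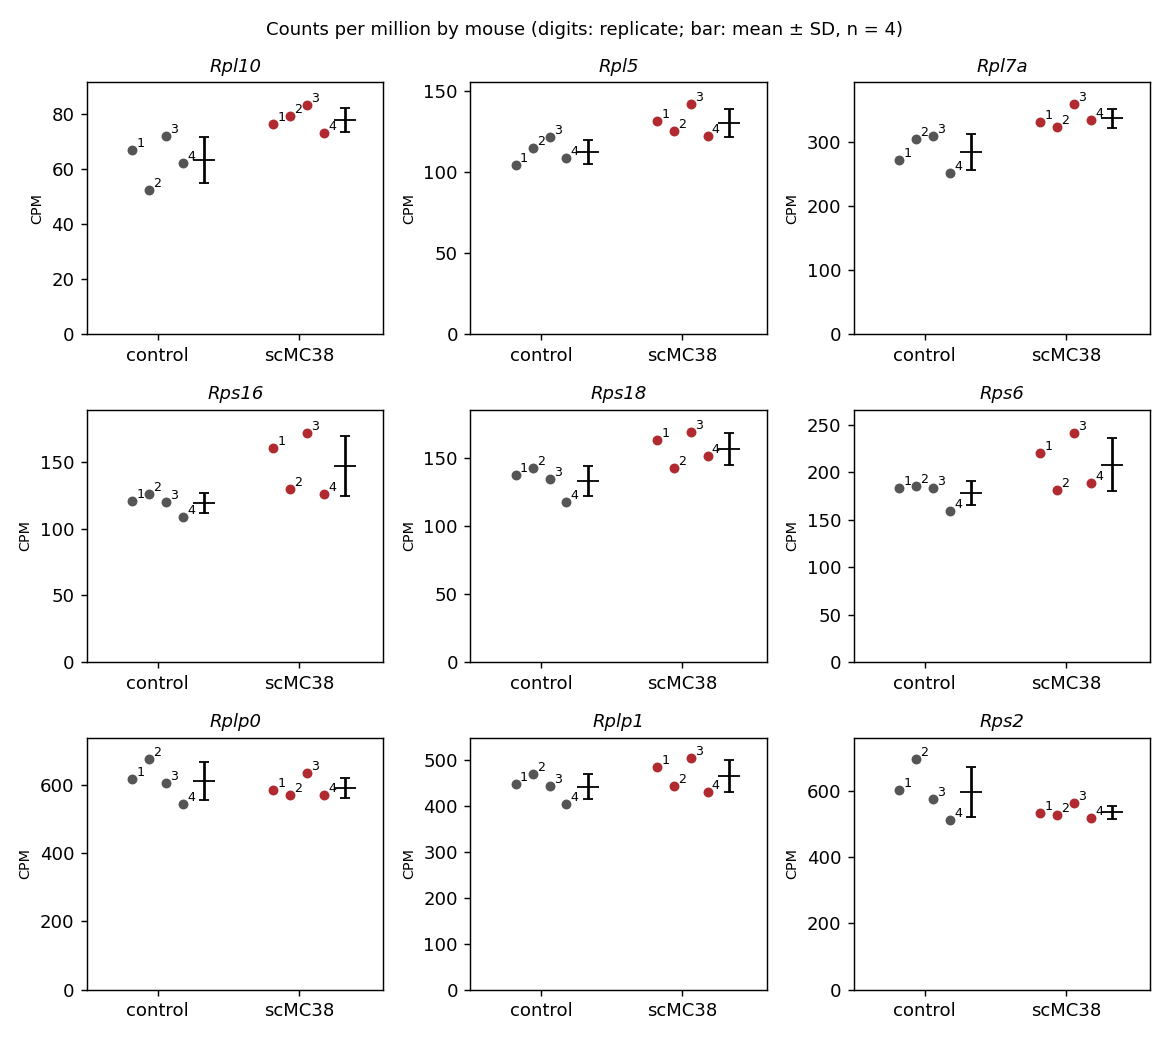
CPM (vertical axis, from 0) of 9 ribosomal protein genes in each mouse, with control and scMC38 along the horizontal axis, replicate numbers beside the points, and the mean ± SD of 4 mice to the right of each group. Rpl10, Rpl5, Rpl7a and Rps18 have groups that do not overlap; Rps16, Rps6, Rplp1 and Rplp0 have groups that do, and scMC38 3 is the highest of its group in every panel.

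In the small subunit, Rps16, whose tail reaches the tRNA in the P site, had the largest log2 fold change of all 76 genes. It was at 121, 127, 120 and 109 CPM in controls and at 160, 130, 172 and 127 CPM in scMC38. The scMC38 1, 2 and 3 libraries lay above every control, with 1 and 3 the highest, and scMC38 4, at 126.5 CPM, was just below control 2 at 126.6 CPM. The log2 fold change was 0.31 (SE 0.12, 95% interval 0.04 to 0.57; edgeR adjusted p = 0.186), and it was 0.13 without scMC38 1 and 3.

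Rps18, at the head of the small subunit, was at 137, 142.4, 135 and 117 CPM in controls and at 163, 142.9, 169 and 152 CPM in scMC38. The groups were apart by less than 1 CPM, between control 2 and scMC38 2, with a log2 fold change of 0.24 (SE 0.09; edgeR adjusted p = 0.191). Rps9 was at 203, 231, 216 and 191 CPM in controls and at 258, 226, 297 and 235 CPM in scMC38, with a log2 fold change of 0.28 (SE 0.11). Rps19, a gene mutated in Diamond-Blackfan anaemia, was at 81.9, 88.3, 79.1 and 71.9 CPM in controls and at 99.4, 87.1, 112 and 86.2 CPM in scMC38, with a log2 fold change of 0.26 (SE 0.11). For Rps9 and Rps19, control 2 exceeded scMC38 2, so the groups overlapped.

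Rps6 is the ribosomal protein phosphorylated by S6 kinase downstream of mTORC1, and its mRNA level says nothing of that phosphorylation. It was at 184, 185, 183 and 159 CPM in controls and at 220, 181, 242 and 189 CPM in scMC38. The library of scMC38 2 was below 3 of the 4 controls. The log2 fold change was 0.23 (SE 0.11, 95% interval -0.03 to 0.48; edgeR adjusted p = 0.291), and it was 0.08 without scMC38 1 and 3. Pseudogene copies of Rps6 held 28.9% of the joint counts. Summed with them, the groups no longer overlapped, though scMC38 2 (263.7 CPM) was only just above control 2 (262.9 CPM). The edgeR adjusted p of the sum was 0.254.

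Rps2, Rps3 and Rps10 line the mRNA entry channel, and they differed among themselves. Rps2, with the most counts of the small subunit, was at 602, 695, 574 and 513 CPM in controls and at 534, 526, 561 and 518 CPM in scMC38. The groups overlapped through control 4, and the log2 fold change was -0.16 (SE 0.11, 95% interval -0.41 to 0.10; edgeR adjusted p = 0.449), or -0.04 with scaling by total counts and -0.03 without controls 1 and 2. Relative to its own control mean, Rps2 was the lowest of the 76 genes in each of the 4 scMC38 libraries, at -0.15, -0.17, -0.08 and -0.19, and the highest of them in control 2, at 0.23. Rps3 was at 211, 222, 210 and 187 CPM in controls and at 243, 225, 260 and 222 CPM in scMC38, with a log2 fold change of 0.20 (SE 0.09). Rps10 had a log2 fold change of 0.23 (SE 0.11; edgeR adjusted p = 0.251) with overlapping groups.

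At the mRNA exit side, Rpsa, Rps26 and Rps28 had log2 fold changes of 0.04, 0.11 and 0.20. Rpsa, also known as the laminin receptor precursor, was at 408, 466, 414 and 399 CPM in controls and at 443, 409, 484 and 393 CPM in scMC38, with wide overlap, and its sign turned to -0.03 without scMC38 3 and to -0.05 without scMC38 1 and 3. Near the decoding centre, Rps15, Rps23 and Rps27a were at 0.10, 0.16 and 0.23. Rps27a, made as a fusion with ubiquitin, was at 110, 108, 114 and 96.9 CPM in controls and at 129, 107, 151 and 114 CPM in scMC38; scMC38 2 was below 3 of 4 controls. Rps24 had a log2 fold change of 0.11 (SE 0.10).

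Pseudogene and retrogene copies shared reads with some of these genes, and the authors' estimates divide such reads by a model. Table entries named as copies of a ribosomal protein gene numbered 311, of which 97 had at least 10 counts. For 13 of the 76 genes the copies held more than 10% of the joint counts, and for 3 of them more than 50%. Copies took 84.7% of the joint counts of Rps27, through the retrogene Rps27rt. They took 68.6% of those of Rpl10, mainly through Rpl10-ps3, and 50.7% of those of Rps23, mainly through Rps23-ps1. How many of these reads came from the copies themselves was not tested.

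Rps27 itself was at 30.9, 29.0, 25.9 and 25.9 CPM in controls and at 31.6, 30.2, 36.9 and 30.3 CPM in scMC38, so that control 1 overlapped the scMC38 group. The retrogene Rps27rt was at 158, 164, 145 and 133 CPM in controls and at 187, 174, 195 and 184 CPM in scMC38, with no overlap, and had a log2 fold change of 0.30 (SE 0.09; edgeR adjusted p = 0.121). Summing Rps27 with its copies took its log2 fold change from 0.21 to 0.29 and its edgeR adjusted p from 0.254 to 0.134, the smallest of the 76 sums. Summing Rpl10 with its copies took the log2 fold change from 0.30 to 0.18 and the edgeR adjusted p from 0.153 to 0.278. The summed values of Rpl10 were 211, 196, 229 and 210 CPM in controls and 244, 229, 258 and 226 CPM in scMC38, which overlapped. The copies' share of the Rpl10 sum ranged from 65.3% to 73.2% between libraries. Rps23 was nearly the same alone and summed, at 0.16 and 0.15.

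**Figure D4:**
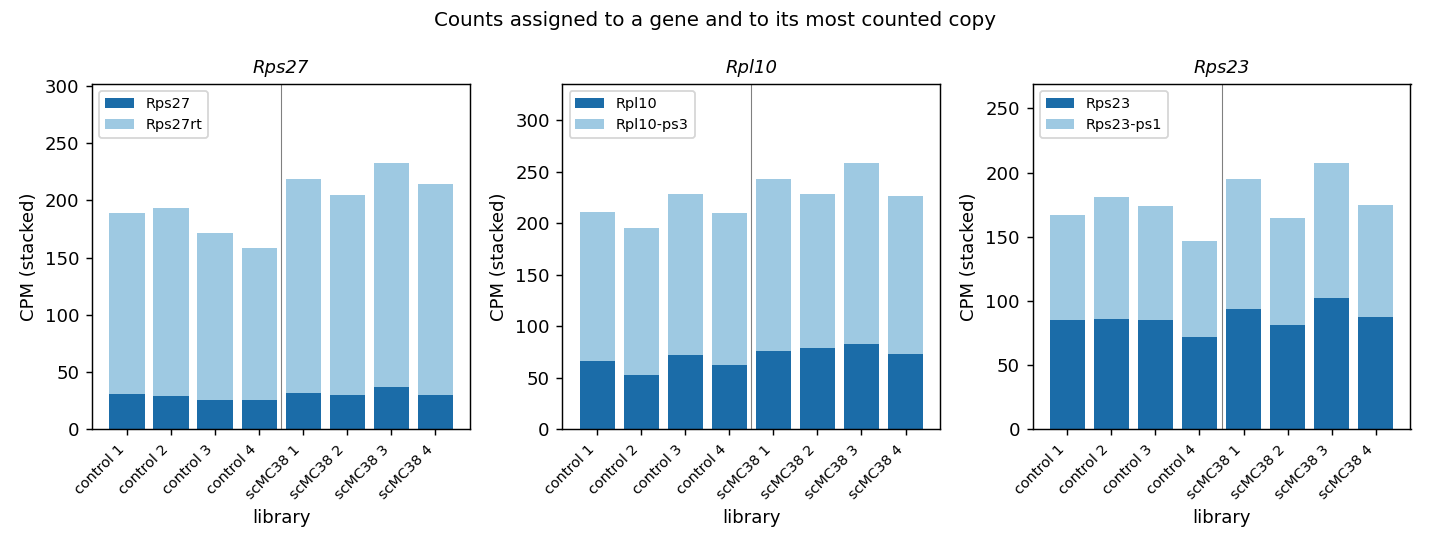
CPM (vertical axis, stacked from 0) assigned to Rps27, Rpl10 and Rps23 (dark) and to the most counted copy of each (light), in each of the 8 libraries along the horizontal axis. The copy holds the larger part of the bar for Rps27 and Rpl10 and about equal parts for Rps23.

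With every gene summed with its copies, a choice added after seeing the data, 0 of 76 were called by edgeR (1.21% of all genes were), 74 were positive, the median was 0.16 and 15 had every scMC38 library above every control (6.85% of all genes did). Copies that passed the filter on their own numbered 24, with 20 positive and a median of 0.24; edgeR called 0 of them, with 8 at an unadjusted p under 0.05, all higher (11.2% of all genes), and DESeq2 called 2, both higher (5.87%). Of the summed counts of the ribosomal protein genes and their copies, the copies held 5.75% to 6.28% in the 8 libraries.

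Genes around the cytosolic ribosome give a comparison. The mitochondrial ribosomal proteins, which build the separate ribosome of mitochondria, had 8 of 79 tested genes positive and a median log2 fold change of -0.16. Of them edgeR called 0 and DESeq2 called 4 lower, where DESeq2 called 597 of all 14112 genes lower. At an unadjusted p under 0.05 in edgeR there were 16, all lower, where 1379 of the 14112 genes were lower. Their level by library was 0.02, 0.24, -0.09 and -0.18 in controls and -0.21, -0.14, -0.23 and -0.04 in scMC38, so that controls 3 and 4 lay within the scMC38 range. Their median was -0.05 without controls 1 and 2, the libraries with the highest mitochondrially encoded share, and -0.06 without scMC38 1 and 3. Mrpl48 had the smallest p of them, with 41.9, 45.6, 43.3 and 48.0 CPM in controls and 33.2, 35.0, 30.6 and 37.0 CPM in scMC38. Its groups did not overlap, and its log2 fold change was -0.40 (SE 0.08; edgeR adjusted p = 0.061). The difference between these lists, and those with the lists that follow, were not tested.

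The 43 genes of ribosome biogenesis, the nucleolar and export factors that assemble the subunits, had 42 positive and a median of 0.23, and 2 were called higher by edgeR (0.737% of all genes were). At an unadjusted p under 0.05 there were 22, all higher (11.2% of all genes), and DESeq2 called 15 higher (5.87%). Npm1, a nucleolar chaperone whose mRNA also carries a TOP motif, rose from 81.8, 78.0, 86.7 and 80.7 CPM to 112, 106, 126 and 115 CPM (log2 fold change 0.49, SE 0.08; edgeR adjusted p = 0.0322). Rrs1, which acts in large subunit assembly with 5S RNA, rose from 18.2, 16.5, 16.5 and 15.2 CPM to 20.6, 24.3, 21.8 and 23.8 CPM (log2 fold change 0.45, SE 0.08; edgeR adjusted p = 0.0481). Neither gene had overlapping groups. With 1 library left out, the edgeR adjusted p of Npm1 was 0.0497 to 0.115, under the threshold only without scMC38 3, and that of Rrs1 was 0.0682 to 0.134. Without controls 1 and 2 they were 0.258 and 0.247. This list was highest in scMC38 4, where the ribosomal proteins were highest in scMC38 3: its level was 0.04, -0.05, -0.01 and 0.02 in controls and 0.20, 0.20, 0.16 and 0.34 in scMC38. Its median was 0.28 without scMC38 1 and 3.

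**Figure D5:**
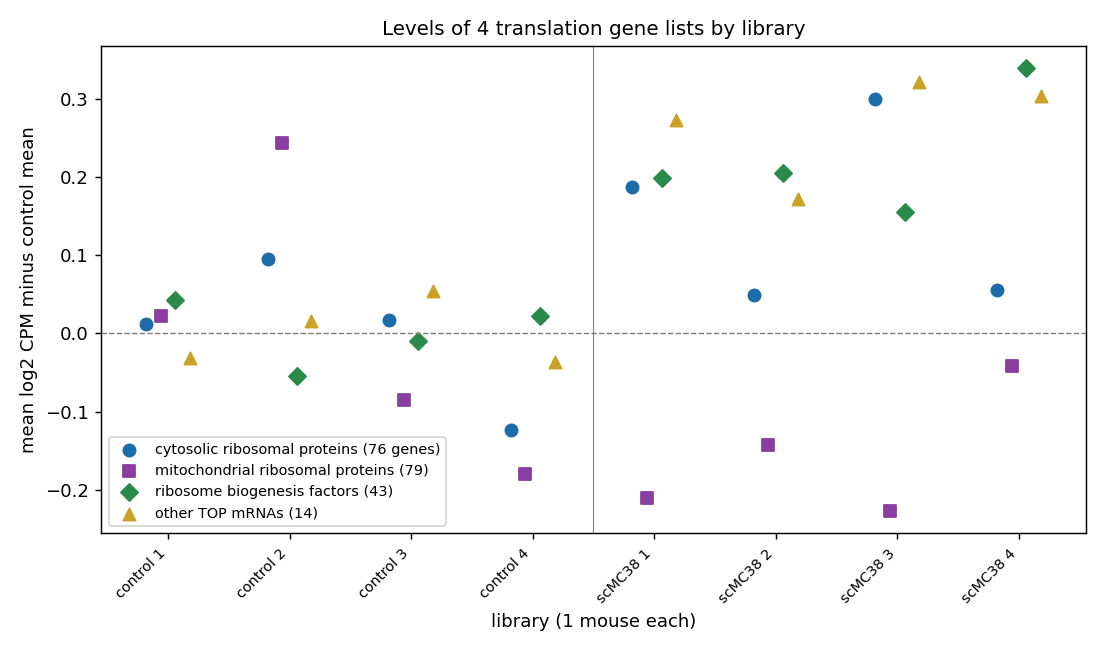
Mean log2 CPM relative to the control mean (vertical axis) of 4 lists of translation genes in each of the 8 libraries (horizontal axis). Biogenesis factors and the other TOP mRNAs lie above the controls in all 4 scMC38 libraries, whereas the cytosolic ribosomal proteins stand out only in scMC38 1 and 3 and the mitochondrial ribosomal proteins lie below 0 in all 4.

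Other mRNAs known to carry a TOP motif, 14 genes of translation factors and chaperones, had 12 positive and a median of 0.24. Of these, edgeR called 1 higher (0.737% of all genes were), which is Npm1 again. At an unadjusted p under 0.05 in edgeR there were 9, all higher (11.2% of all genes), and DESeq2 called 5 higher (5.87%). The level of the 14 genes by library was -0.03, 0.02, 0.05 and -0.04 in controls. It was 0.27, 0.17, 0.32 and 0.30 in scMC38, so that the groups did not overlap. Eef2, the translocation factor, was at 1285, 1347, 1341 and 1219 CPM in controls and at 1727, 1861, 1714 and 1918 CPM in scMC38, with a log2 fold change of 0.48 (SE 0.10; edgeR adjusted p = 0.0713). Eif4b, a cofactor of the initiation helicase, was at 231, 205, 251 and 218 CPM in controls and at 311, 325, 285 and 346 CPM in scMC38, with a log2 fold change of 0.48 (SE 0.10; edgeR adjusted p = 0.0658). Both had groups apart.

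Of the 14 genes of mTORC1 and its TOP regulators, 10 were positive (50.2% of all genes were) and 1 was called higher by edgeR (0.737%). At an unadjusted p under 0.05 in edgeR there were 4, all higher (11.2% of all genes), and DESeq2 called 2 higher (5.87%). Eif4ebp1, the repressor of cap-dependent initiation that mTORC1 inactivates, rose from 40.0, 44.6, 46.9 and 38.6 CPM to 71.9, 76.3, 84.3 and 98.4 CPM (log2 fold change 0.96, SE 0.11; edgeR adjusted p = 0.0162). The call was lost without control 1 (edgeR adjusted p = 0.0865) and without controls 1 and 2 (0.216), and held with any other single library left out. Of the other lists, 30 of 35 initiation factors, 8 of 10 elongation and release factors, 12 of 14 genes of ribosomal RNA transcription and 8 of 11 genes of ribosome rescue and quality control were positive. Of these 4 lists edgeR called 0, with 11, 3, 4 and 1 genes higher at an unadjusted p under 0.05, and DESeq2 called 3, 2, 1 and 1 higher. Over all genes these shares were 11.2% and 5.87%. The initiation factors also had 1 gene lower at an unadjusted p under 0.05 and 1 called lower by DESeq2. Some genes were in more than 1 list, so the lists are not separate observations. Eef1a1, Eef1b2, Eef1g and Eef2 were elongation factors and other TOP mRNAs. Eif3e, Eif3f, Eif3h and Eif4b were initiation factors and other TOP mRNAs, and Eif6 was in the initiation and biogenesis lists. Eef2 and Eif4b had the smallest p of the elongation and initiation lists. Of 3 ribosomal components whose symbols fall outside the pattern, 2 were positive. Fau, made as a ubiquitin-like fusion with a small subunit protein, had a log2 fold change of 0.30 (SE 0.12; edgeR adjusted p = 0.218). Rack1, a scaffold protein of the small subunit, was at 0.18 (SE 0.09). Of 8 tested paralogs of ribosomal proteins, 2 were positive, Rps27rt among them.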

How the data were processed

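The authors deposited 1 table of estimated counts per gene symbol, not scaled for depth or length. Salmon 1.10.3, fastp 1.0.1, R 4.4.3, MultiQC 1.30, FastQC 0.12.1 and build GRCm39 are listed in the submitters' processing notes. The annotation release and strand handling are not stated in the sources used here, so a gene and one overlapping it on the other strand may share reads. Counts were rounded, 144 rows without a symbol were left out, and 26 repeated symbols were summed. Genes were filtered with filterByExpr (minimum count 10), scaled by TMM and tested with edgeR 4.0.16 (robust quasi-likelihood, scMC38 against control, Benjamini-Hochberg over 14112 genes, threshold 0.05) in R 4.3.3. CPM used TMM-scaled library sizes; library levels used log2 CPM with a prior count of 2. Groups came from the sample titles, with 4 mice each. The members, lists and tests were chosen with earlier results of these data known. Named genes were the given markers Rpl10, Rps6 and Rplp0; Rplp1, Rplp2, Rpsa, Rpl5, Rpl11 and Rps27a; the 6 members of each subunit with the smallest p; those with a negative change; the 3 highest and 2 lowest in CPM of each subunit; and those that failed the filter. Some members are not reported by name here. From other lists, called genes or the smallest p were named. Other genes named, Rps12 and Rps26 among them, were chosen after their values were seen. Alternatives were DESeq2 1.42.0, 3 other scalings, 2 other filters, a replicate block and left-out libraries.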

Additional observations from a re-analysis of the deposited data

Results flagged for a closer look

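Of 56 groups of 4 CPM values from the named genes, 2 held a library far from the other 3 by Dixon's test; chance marks about 1 in 20 groups. Rps6 in controls was at 158.82 CPM in control 4, against 183.4 to 184.9 CPM in the other controls. Rps23 in controls was at 72.38 CPM in control 4, against 84.9 to 86.0 CPM in the others. Control 4 was also the lowest library in 69 of the 76 ribosomal protein genes.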

How the results depend on the processing

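No ribosomal protein gene was called under any of the 19 alternatives, and the median of the ribosomal protein genes tested (76 to 78) stayed positive in each; the lowest adjusted p of a named gene was 0.0587, with DESeq2. Scaling by total counts moved the median of all genes to 0.11, that of the ribosomal proteins to 0.27 and that of the biogenesis factors to 0.33. Genes called over the whole table, 170 with edgeR, numbered 1426 with DESeq2, 267 with total counts, 112 with the filter of at least 10 counts in sum, 64 without scMC38 1 and 3 (64 also with copies summed) and 0 without controls 1 and 2. Leaving out 1 library gave 2 to 99 calls. With the replicate number as a block there was 1 call over all genes, 0 among the ribosomal proteins and a median of 0.15; same-numbered mice did not deviate together (correlations -0.113, -0.281, -0.00583 and -0.245), so the numbers were not used as pairs. Under that block Npm1, Rrs1 and Eif4ebp1 had edgeR adjusted p of 0.179, 0.232 and 0.145, and 0 erythroid genes were called. Rrs1 also lost its call with the filter of at least 10 counts in sum (edgeR adjusted p = 0.0652) and with mitochondrially encoded genes taken out (0.0510), and 2 of 12 erythroid genes were called with that filter. Without scMC38 1 and 3, the difference in the share of counts was 0.0569 percentage points. Rplp0 turned positive with total counts (0.0665) and without controls 1 and 2 (0.0295), and ranged from -0.101 (without control 4) to 0.00344 (without control 2) with 1 library left out. Rpsa ranged from -0.0253 (without scMC38 3) to 0.0850 (without control 2), and turned negative without scMC38 1 and 3 (-0.0515) and with copies summed as well (-0.0511). The other 24 named genes kept their sign in all alternatives, and the causes were not tested. The number of mice, 4 in each group, limits these comparisons, and the effect of depth was not tested.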
